A study of Homo sapiens with 11 samples.

Results

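A set of 9 genes of the kidney lineage was followed here with their values in 769-P cells, a cell line from a human clear-cell renal carcinoma, after siRNA knockdown of AKR1A1, an aldo-keto reductase. They were the rows of the deposited tables whose symbol was PAX8, PAX2, HNF4A, AQP1, CDH6, LRP2, CUBN, ANPEP or MME, 9 of 33079 genes in all, and all 9 were found. Total RNA had been sequenced from wild-type 769-P cells 48 h after transfection with a second siRNA against AKR1A1 (si2, n = 4 libraries), a first siRNA against AKR1A1 (si1, n = 3) or a control siRNA (siSCR, n = 4), each labelled at 20 µM. The 3 groups shared the line, the plate format and the lipid reagent, and differed in the siRNA; as 1 cultured line, the model holds no neighbouring nephron segment, stroma or blood.

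Clear-cell renal carcinoma arises from the proximal tubule, the nephron segment that takes filtered water, protein, glucose and phosphate back from the urine. PAX2 and PAX8 are paired-box transcription factors that specify the kidney lineage and often stay on in renal tumours, and HNF4A is a nuclear receptor that drives the differentiated proximal tubule programme. AQP1 is the water channel of that epithelium and CDH6 a cadherin that joins its cells. LRP2 (megalin) and CUBN (cubilin) are the endocytic receptors that retrieve filtered protein, and ANPEP (aminopeptidase N) and MME (neprilysin) are peptidases of the brush border.

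In 769-P cells 6 of the 9 genes were expressed, taken here as a normalized count of at least 10 in 3 or more of the 11 libraries: PAX8, PAX2, AQP1, CDH6, CUBN and ANPEP. LRP2 and MME were low, and HNF4A had no read. AQP1 was higher with si2 than with si1 and was the 1 gene of the 6 tested that passed in a comparison of all libraries, where 6.74% of all genes passed. This call was lost without any 1 library other than si1 2 and with the share of mitochondrial transcripts in the fit. That share did not overlap between si2 and si1, so this fit could not cleanly separate it from the siRNA. Against siSCR none of the tested genes passed, where 3.12% of all genes did with si2 and 1.72% with si1. With si1, AQP1 stood lower and CUBN higher than with siSCR in every library of these groups. CDH6 stood higher with si2 than with siSCR, again in every library. Groups without overlap were found for 21.7% of all genes tested for si1 and 12.6% for si2 against siSCR. The limma adjusted p of AQP1, CUBN and CDH6 in these comparisons lay between 0.0609 and 0.0883. CUBN entered the test of si1 against siSCR through its si1 libraries and AQP1 through its siSCR libraries. Their lower groups held 13 reads of CUBN (siSCR) and 29 of AQP1 (si1).

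The start regions of AQP1 and CUBN are shown because these genes had the largest differences between groups. Each runs 5′ to 3′ on the gene's strand, from 250 bases before to 50 bases after the RefSeq start on GRCh38.p14; capitals mark TATAAA in AQP1 (chr7:30911603-30911902, plus strand) and the HNF4 motif CAAAGGTCA in CUBN (chr10:17129762-17130061, minus strand).
AQP1: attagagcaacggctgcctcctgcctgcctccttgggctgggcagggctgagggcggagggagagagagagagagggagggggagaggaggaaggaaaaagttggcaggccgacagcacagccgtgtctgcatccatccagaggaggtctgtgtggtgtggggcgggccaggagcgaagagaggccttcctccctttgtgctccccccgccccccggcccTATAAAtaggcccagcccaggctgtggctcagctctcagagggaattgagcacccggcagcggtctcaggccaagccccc
CUBN: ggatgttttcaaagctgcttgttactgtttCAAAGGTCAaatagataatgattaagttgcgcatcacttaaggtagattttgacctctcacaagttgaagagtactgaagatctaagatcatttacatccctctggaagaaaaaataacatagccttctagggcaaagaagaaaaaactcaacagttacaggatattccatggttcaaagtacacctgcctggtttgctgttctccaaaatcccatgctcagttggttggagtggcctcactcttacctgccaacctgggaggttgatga

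Among the letters searched on both strands of 35116 RefSeq start regions were TATAAA, CAAAGGTCA or CAAAGTCCA, and the PAX core GTCACGC. Each motif was counted separately, and overlap between motifs was not tested. TATAAA stood in 11.5% of all start regions and in 1 of the 14 found for 8 of the 9 genes, beginning 30 bases before the AQP1 start. An HNF4 motif stood in 0.792% of all and in 1 of the 14, beginning 220 bases before the CUBN start. The PAX core stood in 2.52% of all and in 0 of the 14. The table had no entry for CDH6. A match is a string of letters and was not measured as a bound site.

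The libraries held 2958944 to 5939514 reads on genes with si2, 2108546 to 3880155 with si1 and 2271348 to 3836109 with siSCR. AKR1A1 itself averaged 45.8 ± 10.2 normalized counts with si2 (SD, n = 4), 50.1 ± 29.4 with si1 (n = 3) and 272 ± 82.3 with siSCR (n = 4), log2 fold changes of -2.53 for si2 (limma adjusted p = 0.00218) and -2.54 for si1 (limma adjusted p = 0.0357) against siSCR. With single libraries left out the si2 call held each time, and the si1 call held only without siSCR 1 (limma adjusted p of 0.0659 to 0.126 without any other library). Mitochondrially encoded transcripts took 4.59% to 5.12% of reads with si2, 6.57% to 11.1% with si1 and 3.46% to 12.1% with siSCR, where siSCR 1 had 12.1% and the other 3 at most 4.46%. The library si1 2 had reads on 11618 genes, against 13154 to 14355 in the other 10. Keratin and vimentin transcripts were present, with VIM at 9256 ± 529.9 normalized counts with si2 (n = 4), 8300.2 ± 2099.9 with si1 (n = 3) and 9224 ± 635 with siSCR (n = 4), whereas the carcinoma marker CA9 had no read. Of 7 endothelial markers 6 had no read, PECAM1 among them, and the summed level of all 7 was 0 in all si2 and si1 libraries and at most 1.07 with siSCR. The labels do not say whether libraries came from separate cultures, so p-values measure the spread between these libraries, which may be technical. In RNA from a whole culture, fewer cells that express a gene and less RNA of it per cell cannot be told apart.

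Per kilobase of exon, PAX8 had the highest level of the 9 genes, with a mean of 118 normalized counts per kb over the 11 libraries and a range of 96.1 to 155. That level was above those of 89.5% of 10759 expressed genes. CDH6 followed at 46.6 per kb (30.6 to 61.0), ANPEP at 35.3 (19.2 to 69.8), PAX2 at 12.1 (5.05 to 18.7) and AQP1 at 11.9 (1.53 to 19.1). Their places among expressed genes were above 75.6%, 69.5%, 42.0% and 41.6%. CUBN had 0.881 per kb (0 to 5.02), MME 0.646 (0.0913 to 1.38) and LRP2 0.0317 (0 to 0.129). The CUBN level was above those of 0.837% of expressed genes. By the median over the libraries, CUBN (0.312) lay below MME (0.666). The ranges of CDH6 and ANPEP overlapped, as did those of PAX2 and AQP1 and each neighbouring pair below them. PAX8 stood above all others in every library, and CDH6 and ANPEP above all that followed. The lowest PAX2 value, 5.05, was above the highest of CUBN, 5.02, and the lowest AQP1 value, 1.53, was above the highest of MME, 1.38, and of LRP2.

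**Figure D1:**
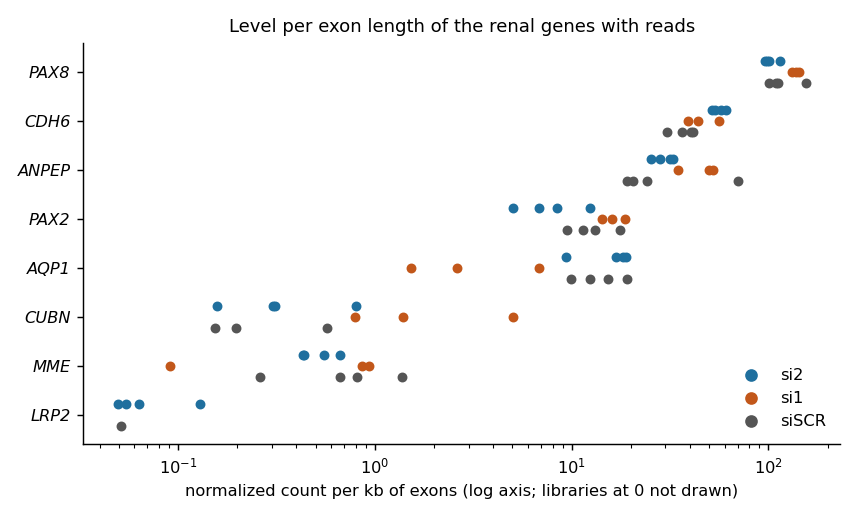
Level of the 8 renal genes with reads in each library, in normalized counts per kb of exons on a log axis, by group (si2, si1, siSCR); libraries at 0 are not drawn and HNF4A had no read. PAX8 lies highest at 96.1 to 155 per kb, and LRP2 lowest at no more than 0.129.

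HNF4A (ENSG00000101076, chr20:44355700-44434596, plus strand) had 0 of 36266558 reads over the 11 libraries. A count of 0 allows up to 3 reads, a limit of 0.0827 in 1000000 reads, and in single libraries a limit of 1.55 to 4.51 normalized counts; such limits cover counting error only. Its paralogue HNF4G, named here after its values were seen, had 59.3 ± 9.39 normalized counts with si2, 46.6 ± 12.0 with si1 and 59.5 ± 12.7 with siSCR.

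PAX8 (ENSG00000125618, chr2:113215997-113278950, minus strand) had 711, 732, 849.6 and 743 normalized counts in the si2 libraries, 1063, 1024 and 971 in the si1 libraries, and 1149, 745, 806 and 829 in the siSCR libraries. The siSCR libraries spanned nearly the whole range, with siSCR 1 above all others, while every si1 library lay above every si2 library. The log2 fold change against siSCR was -0.20 for si2 (SE 0.17, 95% interval -0.59 to 0.19, limma adjusted p = 0.574) and 0.23 for si1 (SE 0.20, -0.24 to 0.70, limma adjusted p = 0.507). An antisense gene, PAX8-AS1, overlaps 9.26% of the PAX8 exons on the other strand, and the strandedness of the libraries is not given in the sources used here.

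PAX2 (ENSG00000075891, chr10:100735603-100829941, plus strand) had 42.5, 77.0, 31.5 and 52.3 normalized counts in the si2 libraries, 100.1, 117 and 88.7 in the si1 libraries, and 110.0, 82.3, 58.9 and 71.3 in the siSCR libraries. The si2 libraries lay low and the si1 libraries high, without overlap between them, and both ran into the siSCR values. Against siSCR the log2 fold change was -0.69 for si2 (SE 0.28, 95% interval -1.32 to -0.06, limma adjusted p = 0.215) and 0.36 for si1 (SE 0.25, -0.21 to 0.93, limma adjusted p = 0.391). Between the siRNAs it was -1.05 (SE 0.30, -1.73 to -0.37, limma adjusted p = 0.0744). Both PAX genes were thus expressed in all 11 libraries, and neither passed the test in any of the 3 comparisons of all libraries. PAX2 passed between the siRNAs in 3 of 17 alternatives, with a minimum of 50 (limma adjusted p = 0.0306), limma-trend (limma adjusted p = 0.0357) and voom (-1.03, adjusted p = 0.025).

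AQP1 (ENSG00000240583, chr7:30911694-30925516, plus strand) had 62.8, 32.1, 65.1 and 57.5 normalized counts in the si2 libraries, 5.27, 23.6 and 9.02 in the si1 libraries, and 65.5, 52.3, 34.0 and 42.8 in the siSCR libraries. All 3 si1 libraries lay below every other library, with only 6, 17 and 6 reads, whereas the si2 and siSCR libraries covered the same range. With 1 si1 library at 10 or above, AQP1 entered the comparisons with si1 through its si2 or siSCR libraries. The means were 54.4 ± 15.2 with si2 (SD, n = 4), 12.6 ± 9.68 with si1 (n = 3) and 48.7 ± 13.5 with siSCR (n = 4).

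Between the siRNAs, the AQP1 level was higher with si2 by 2.21 on the log2 scale (SE 0.46, 95% interval 1.16 to 3.26, limma adjusted p = 0.0303). This call was lost when any library other than si1 2 was left out, with values of 1.77 to 2.44 and limma adjusted p between 0.0544 and 0.0895; without si1 2 it was 2.75 (limma adjusted p = 0.0077). When the mitochondrial share entered the fit, the difference was 0.75 (limma adjusted p = 0.397). That share was 4.59% to 5.12% with si2 and 6.57% to 11.1% with si1, without overlap. This fit therefore could not cleanly separate the share from the siRNA, and the part of the share in the difference was not tested further. Over all alternatives tried for this difference the adjusted p lay between 0.00758 and 0.397.

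Against siSCR, AQP1 had a log2 fold change of -2.06 with si1 (SE 0.46, 95% interval -3.12 to -1.01, limma adjusted p = 0.0609) and 0.15 with si2 (SE 0.27, -0.45 to 0.75, limma adjusted p = 0.816). The authors' deposited table, from DESeq2, gave AQP1 with si1 a log2 fold change of -1.48 and an adjusted p of 0.00466. With each of the 17 alternatives the si1 value stayed between -2.61 and -1.62, and its limma adjusted p ran between 0.0107 and 0.177, below 0.05 in 6 of them. A readthrough gene on the same strand, AC004691.2, shares 26.5% of the AQP1 exons and was listed at 0 in every library.

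CDH6 (ENSG00000113361, chr5:31193750-31329146, plus strand) had 711, 665, 755 and 641 normalized counts in the si2 libraries, 546, 697 and 484 in the si1 libraries, and 512, 379, 498 and 450.2 in the siSCR libraries. Every si2 library stood above every siSCR library, and the si1 libraries overlapped both. With si2 the log2 fold change against siSCR was 0.60 (SE 0.16, 95% interval 0.25 to 0.94, limma adjusted p = 0.0703), and with si1 it was 0.32 (SE 0.21, -0.16 to 0.79, limma adjusted p = 0.373). The authors' deposited table gave CDH6 with si2 a log2 fold change of 0.56 and an adjusted p of 0.0033. Without siSCR 1 the si2 value was 0.65 (limma adjusted p = 0.0228), and over its 18 alternatives it lay between 0.51 and 0.65, with adjusted p between 0.0228 and 0.190. A pseudogene, DUX4L51, covers 8.96% of the CDH6 exons on the same strand.

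Among the endocytic receptors, LRP2 (ENSG00000081479, chr2:169127109-169362685, minus strand) had 7 reads in all. The si2 libraries had 1, 1, 2 and 2 reads, the si1 libraries 0 of 8178429, which allows up to 0.367 in 1000000 reads, and the siSCR libraries 1, 0, 0 and 0. Megalin was thus close to the detection limit with every siRNA, on 16260 bp of exons, and no fold was taken.

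CUBN (ENSG00000107611, chr10:16823966-17129817, minus strand) had 10.6, 4.01, 2.10 and 4.15 normalized counts in the si2 libraries, 18.4, 66.6 and 10.5 in the si1 libraries, and 7.56, 0, 2.62 and 2.04 in the siSCR libraries. In reads these were 12, 5, 2 and 8 with si2, 21, 48 and 7 with si1, and 9, 0, 2 and 2 with siSCR. All si1 libraries lay above all siSCR libraries, and si1 2, the library with the fewest genes detected, held 48 of the 76 reads of the si1 libraries. The log2 fold change of si1 against siSCR was 2.99 (SE 0.80, 95% interval 1.13 to 4.85, limma adjusted p = 0.0883), and it was 2.27 without si1 2. CUBN entered this test, and met the rule for an expressed gene, through its si1 libraries; in siSCR no library reached 10. Against siSCR it was not tested with si2, and between the siRNAs it entered through the same si1 libraries. The authors' deposited table gave CUBN with si1 a log2 fold change of 1.71 and an adjusted p of 0.00493.

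ANPEP (ENSG00000166825, chr15:89784889-89815401, minus strand) had 124, 155, 137 and 159.6 normalized counts in the si2 libraries, 254, 243 and 169.8 in the si1 libraries, and 340.0, 99.4, 118 and 93.7 in the siSCR libraries. The library siSCR 1 stood above every other library of any group, and the other 3 stood below all of them. Against siSCR the log2 fold change was 0.04 for si2 (SE 0.37, 95% interval -0.77 to 0.85, limma adjusted p = 0.969) and 0.65 for si1 (SE 0.45, -0.40 to 1.70, limma adjusted p = 0.403). Without siSCR 1, which also had the 12.1% mitochondrial share, these values were 0.47 (limma adjusted p = 0.081) and 1.08 (limma adjusted p = 0.0275); the part of that share in the result was not tested. Over the 18 alternatives the adjusted p ran between 0.081 and 0.998 for si2 and between 0.0275 and 0.642 for si1.

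MME (ENSG00000196549, chr3:155024124-155183729, plus strand) had 67 reads over the 11 libraries. Its normalized counts were 5.31, 6.42, 4.20 and 4.15 with si2, 0.878, 8.33 and 9.02 with si1, and 2.52, 6.41, 7.85 and 13.2 with siSCR. Only siSCR 4 reached 10, the 3 groups overlapped, and MME was not tested. Of the brush border peptidases chosen, ANPEP was therefore expressed and MME was near the detection limit. Of 12 other brush border peptidases and enzymes, 2 were expressed, GGT1 and DPP4, 5 were low and 5 had no read. GGT1, which splits glutathione, had 442 ± 51.7 normalized counts with si2, 582 ± 205 with si1 and 336 ± 121 with siSCR, and neither gene passed the limma test in any comparison.

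**Figure D2:**
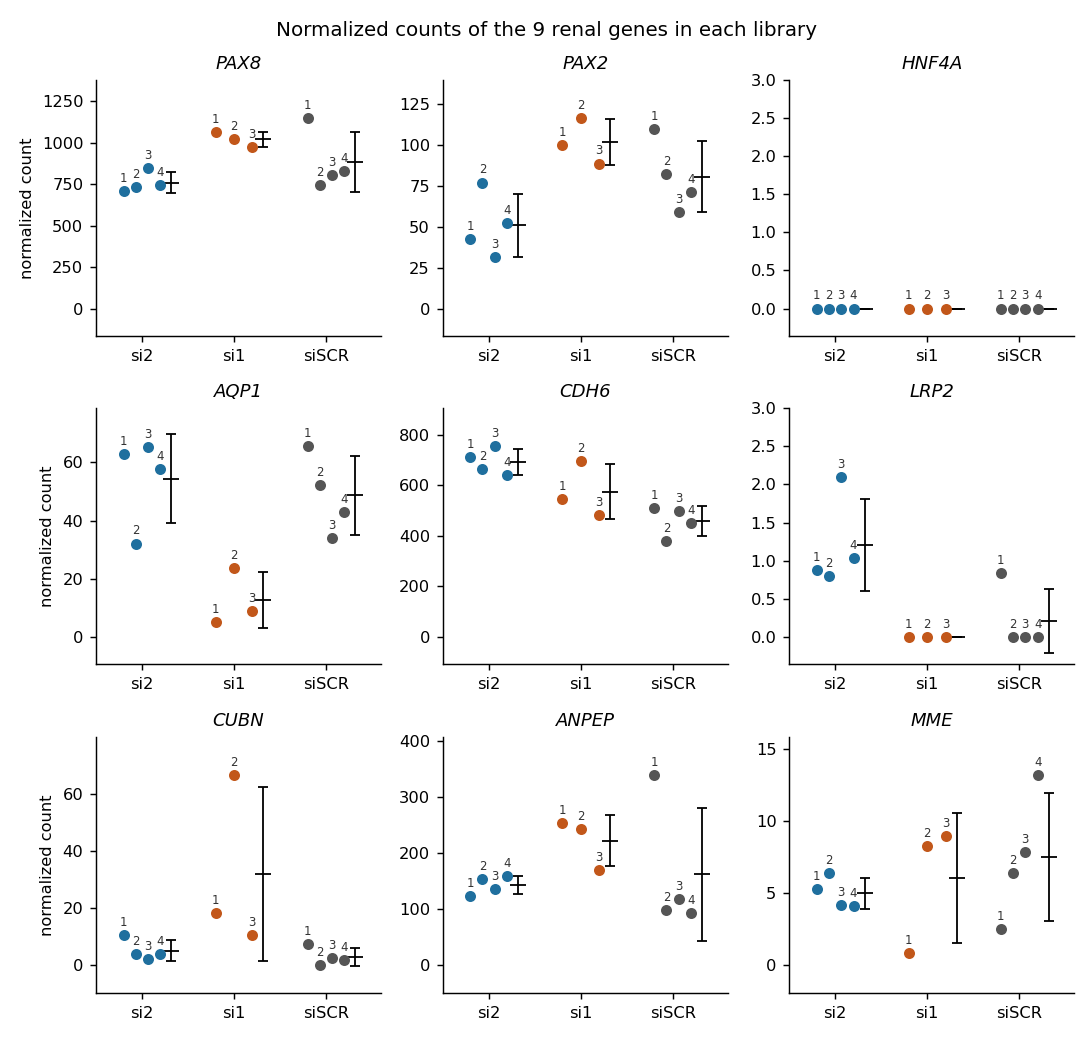
Normalized counts of the 9 genes in each library (points, numbered by replicate) with the mean and SD of each group (bar and whiskers), for si2 (n = 4), si1 (n = 3) and siSCR (n = 4); each panel has its own linear axis. The 3 si1 libraries of AQP1 lie at 5.27 to 23.6, below the 32.1 to 65.5 of all others, and siSCR 1 stands at 340.0 for ANPEP.

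Counted by comparison, 5 of the 9 genes could be tested for si2 against siSCR, and limma called 0 of them, where it called 3.12% of all 10249 genes tested. At an unadjusted p under 0.05 there were 2, PAX2 and CDH6, against 19.6% of all genes, and voom on the recovered reads called 1, CDH6, against 4.47% of all genes. For 1 of the 5, CDH6, the groups did not overlap, against 12.6% of all genes. Without siSCR 1, limma called CDH6 alone, while it called 14.4% of all genes. The median log2 fold change was 0.04 over the 5 and -0.01 over all genes tested.

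For si1 against siSCR, 6 genes could be tested, and limma called 0 of them, where it called 1.72% of all 10517 genes. At an unadjusted p under 0.05 there were 2, AQP1 and CUBN, against 23.9% of all genes, and voom called 1, AQP1, against 5.51% of all genes. The groups did not overlap for the same AQP1 and CUBN, against 21.7% of all genes. Without siSCR 1, limma called 3: AQP1 at -1.91 (adjusted p = 0.049), CUBN at 3.48 (adjusted p = 0.0316) and ANPEP at 1.08 (adjusted p = 0.0275), while it called 13.5% of all genes; CUBN passed the filter on low values through its si1 libraries and AQP1 through its siSCR libraries. These 3 were also called by limma without both siSCR 1 and si1 2, a setting chosen after seeing the data, with adjusted p-values of 0.0107, 0.0324 and 0.0399, while it called 16.5% of all genes. The median log2 fold change was 0.34 over the 6 and -0.03 over all genes tested. In the authors' deposited tables, with 1050 genes at an adjusted p under 0.05 for si1 and 617 for si2, AQP1 and CUBN passed for si1 and CDH6 for si2.

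For si2 against si1, limma called 1 of 6 genes, AQP1, where it called 6.74% of all 10448 genes. The unadjusted p was under 0.05 for 5, all but CDH6, against 25.4% of all genes, and the groups did not overlap for 4, PAX8, PAX2, AQP1 and ANPEP, against 25.0% of all genes. With voom 3 passed, AQP1, PAX2 and CUBN (-2.28, adjusted p = 0.0432), against 11.2% of all genes. Here CUBN passed the filter on low values through its si1 libraries and AQP1 through its si2 libraries. PAX8 was lower with si2 by a log2 value of -0.43 (SE 0.16, limma adjusted p = 0.150), ANPEP by -0.61 (SE 0.21, limma adjusted p = 0.116) and CUBN by -2.16 (SE 0.63, limma adjusted p = 0.0802), none past the threshold. The comparisons with siSCR share the same 4 control libraries, and the comparison between the siRNAs uses none of them.

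**Figure D3:**
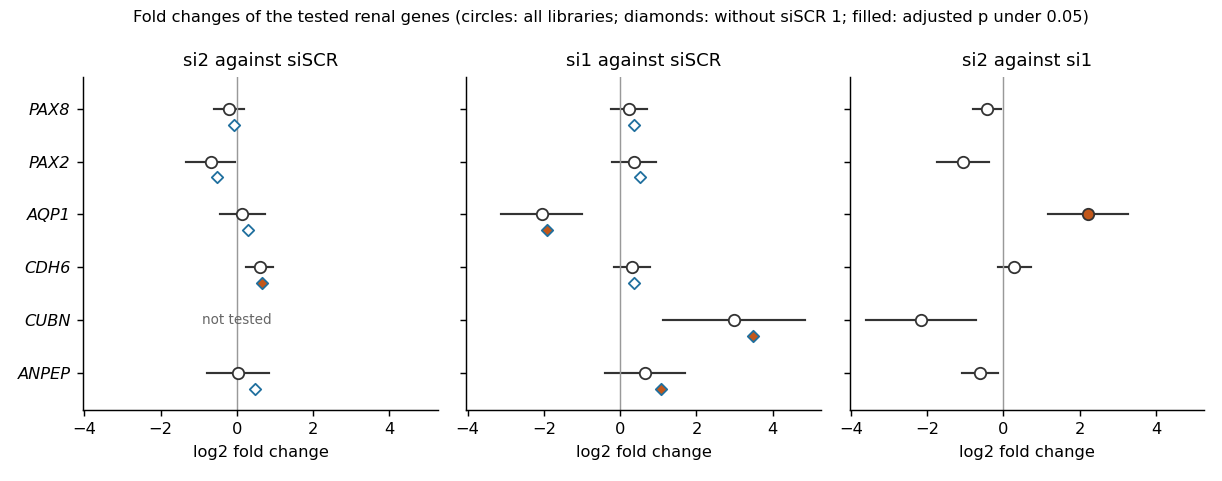
Log2 fold changes of the tested renal genes in the 3 comparisons; circles with lines give the value and 95% interval from limma with all libraries, diamonds the value without siSCR 1, and filled symbols an adjusted p under 0.05. AQP1 is the 1 filled circle, at 2.21 for si2 against si1, and without siSCR 1 the filled diamonds are CDH6 for si2 and AQP1, CUBN and ANPEP for si1.

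By likeness of pattern, taken as the root mean square difference of log2 levels centred on each gene's mean over the 11 libraries, the nearest of 10754 other genes to AQP1 were PLAT (0.52), CD83 (0.54) and HDHD2 (0.54). For CUBN they were TRIM55 (0.60), TFEC (0.70) and TLL2 (0.74). HDHD2 had means of 199.6 normalized counts with si2, 47.0 with si1 and 221 with siSCR, and TRIM55 26.4 with si2, 121 with si1 and 27.6 with siSCR. Nearest to PAX8 were UROS (0.10), KAT6A (0.11) and ABCC3 (0.12), and nearest to PAX2 were CPNE7 (0.19), LOC100506127 (0.22) and PLEKHM2 (0.23). CCNI (0.13), TMBIM6 (0.14) and VAPB (0.14) came nearest to CDH6, and COBLL1 (0.18), CACNB3 (0.21) and PRPF40B (0.22) to ANPEP.

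Of 14 other transcription factors of the renal lineage, 9 were expressed, 4 were low and 1, EMX2, had no read. In the fit of si2 against siSCR 1 of the 9 tested rose and 0 fell, where 3.12% of all genes were called, and in that of si1 against siSCR 0 rose and 1 fell, where 1.72% of all genes were called, and both calls were WT1, the zinc finger factor of the early nephron and the podocyte. WT1 had 51.3, 37.7, 44.1 and 51.8 normalized counts with si2, 9.66, 4.16 and 6.01 with si1, and 22.7, 21.4, 17.0 and 32.6 with siSCR. The 3 groups did not overlap, with si1 lowest and si2 highest. No si1 library reached 10, so WT1 entered the comparisons with si1 through its siSCR or si2 libraries, and its si1 values rest on 18 reads in all. The log2 fold change was 0.98 for si2 (SE 0.21, limma adjusted p = 0.0369) and -1.71 for si1 (SE 0.31, limma adjusted p = 0.0451) against siSCR, and 2.69 for si2 against si1 (SE 0.27, limma adjusted p = 0.00409). With single libraries left out, the WT1 call held each time for si2 against si1 (limma adjusted p up to 0.0226). Against siSCR it held for si2 only without siSCR 1 or siSCR 4 (limma adjusted p of 0.0716 to 0.121 without any other library), and for si1 only without siSCR 1 (0.0669 to 0.137). Voom did not call WT1 for si1 against siSCR, at -1.69 (adjusted p = 0.107). LHX1, a homeobox factor of nephron patterning, was the most abundant of the list and did not pass in any comparison of all libraries. It had 408 normalized counts in siSCR 1 and 1073, 1206 and 1182 in the other siSCR libraries. Without siSCR 1 it was lower with si1, at -0.77 (limma adjusted p = 0.0365). In that setting limma called 4 of the 9 higher and 0 lower with si2, against 14.4% of all genes. With si1 it called 3 higher and 2 lower, against 13.5% of all genes. With all libraries, the list's median was 0.31 for si2 and -0.10 for si1 against siSCR, beside medians of -0.01 and -0.03 over all genes.

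The 8 genes listed as partners of megalin and cubilin were all expressed, unlike LRP2. With all libraries, none passed the limma test against siSCR with either siRNA, where 3.12% of all genes did with si2 and 1.72% with si1. The median log2 fold change was 0.08 with si2 and 0.49 with si1. FCGRT, the Fc and albumin receptor, was the 1 called between the siRNAs, against 6.74% of all genes, and was lower with si2 than with si1 by -1.25 on the log2 scale (SE 0.26, limma adjusted p = 0.0313), at 26.7 ± 8.45 normalized counts with si2 and 63.3 ± 10.6 with si1; this call held without si2 4 and was lost without any other library (limma adjusted p of 0.0507 to 0.0859). The most abundant of the list, DAB2, the endocytic adaptor of megalin, had 467 ± 64.6 normalized counts with si2, 684 ± 87.4 with si1 and 433 ± 16.3 with siSCR. For si1 against siSCR, voom called DAB2 alone of the 8, at 0.65 (voom adjusted p = 0.032), against 5.51% of all genes. AMN (amnionless), which carries cubilin to the membrane and is named after its values were seen, had 37.8 ± 7.28 normalized counts with si2, 54.1 ± 7.54 with si1 and 22.1 ± 7.92 with siSCR, with limma adjusted p of 0.129 for si2 and 0.0609 for si1 against siSCR. Without siSCR 1, limma called AMN higher with si2, at 1.00 (adjusted p = 0.0182), and with si1, at 1.51 (adjusted p = 0.0149). In that setting 14.4% of all genes were called with si2 and 13.5% with si1.

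Proximal tubule transporters, with the scaffold PDZK1 and its partner PDZK1IP1, were expressed for 9 of 24. Of the rest, 7 had no read, among them the glucose transporter SLC5A2 and the organic anion transporter SLC22A6, and 8 were low. With si2, 2 of 9 rose and 0 fell against siSCR, where 3.12% of all genes were called: PDZK1IP1 by 1.36 on the log2 scale (SE 0.27, limma adjusted p = 0.0289) and SLC4A4, the basolateral bicarbonate cotransporter, by 0.87 (SE 0.17, limma adjusted p = 0.0272). Both calls held without siSCR 1, and that of SLC4A4 also without si2 3; without any other library they were lost (limma adjusted p of 0.0524 to 0.0961). With si1, 0 of 9 passed, where 1.72% of all genes did. An unadjusted p under 0.05 by limma was reached by 7 of the 9, against 23.9% of all genes, and voom called 6, all higher, against 5.51% of all genes. Their median log2 fold change was 0.54 with si2 and 0.98 with si1. Summed over the list, the level was 3518 to 3829 normalized counts with si2, 4122 to 4359 with si1 and 2020 to 3104 with siSCR. Without siSCR 1 limma called 5 of the 9 higher with si2, against 14.4% of all genes, and 5 with si1, against 13.5% of all genes.

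Of 19 metabolic enzymes of the proximal tubule, 6 were expressed and FBP1, the gluconeogenic fructose bisphosphatase, was among the 5 without a read. Against siSCR 0 of 6 passed with si2, where 3.12% of all genes did, and 1 of 6 rose with si1, where 1.72% of all genes were called. This was ASS1, the arginine-making enzyme argininosuccinate synthase, higher by 1.70 on the log2 scale (SE 0.22, limma adjusted p = 0.0318). ASS1 had 33.6, 36.1, 42.0 and 40.4 normalized counts with si2, 87.8, 62.4 and 99.2 with si1, and 23.5, 28.8, 20.9 and 25.5 with siSCR. Each si1 library lay above each si2 library, and each si2 library above each siSCR library. With si2 against si1, ASS1 (-1.09, limma adjusted p = 0.0253) and MIOX, the inositol oxygenase of the tubule (-1.10, limma adjusted p = 0.046), were lower, 2 of 6 against 6.74% of all genes. Without siSCR 1, limma called 3 of 6 higher with si2, MIOX, ASS1 and UGT2B7, against 14.4% of all genes, and 2 with si1, MIOX and ASS1, against 13.5%. The ASS1 call against siSCR held only without siSCR 1 (limma adjusted p of 0.0629 to 0.124 without any other library), and the ASS1 and MIOX calls between the siRNAs only without si1 2 or si2 3 (0.0602 to 0.118). The list's median against siSCR was 0.59 with si2 and 0.97 with si1.

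Genes raised in injured proximal tubule were expressed for 7 of 10, and 2 of the 7 rose with si2 against siSCR, where 3.12% of all genes were called, VCAM1 by 1.80 (SE 0.33, limma adjusted p = 0.0213) and SPP1 (osteopontin) by 1.43 (SE 0.32, limma adjusted p = 0.0434) on the log2 scale. Neither passed with si1 against siSCR, at -0.10 for VCAM1 (limma adjusted p = 0.867) and 1.65 for SPP1 (limma adjusted p = 0.0706), where 1.72% of all genes were called. The list's median was 0.34 with si2 and -0.10 with si1. VCAM1 was higher with si2 than with si1 by 1.90 (SE 0.35, limma adjusted p = 0.0223), at 60.1, 73.8, 165 and 103 normalized counts with si2 and 27.2, 29.1 and 18.0 with si1. With single libraries left out, SPP1 was called only without siSCR 1 (limma adjusted p of 0.101 to 0.129 without any other), and both VCAM1 calls were lost without some libraries (0.0511 to 0.0726 without si2 2 or si2 4 and, by comparison, si1 1, si1 3, siSCR 2, siSCR 3 or siSCR 4). Of 20 genes of other nephron segments 11 had no read, UMOD of the thick ascending limb among them, and CLDN16, a claudin of that limb, was 1 of the 2 expressed and rose with si2 by 0.75 (SE 0.15, limma adjusted p = 0.0282), a call that held only without siSCR 1 (0.0555 to 0.104 without any other library). AQP1 was 1 of 3 aquaporins expressed, with AQP3 and AQP11 of 9 others. AQP11 was near the minimum of 10, at means of 8.73 normalized counts with si2 and 17.6 with si1, and was not tested against siSCR. With a minimum of 50, 0 of the 9 others counted as expressed. The neuronal cadherin gene CDH2 had 2369 ± 320.3 normalized counts with si2, 2073 ± 33.6 with si1 and 2723 ± 347 with siSCR, while CDH1 had 7 reads in all.

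**Figure D4:**
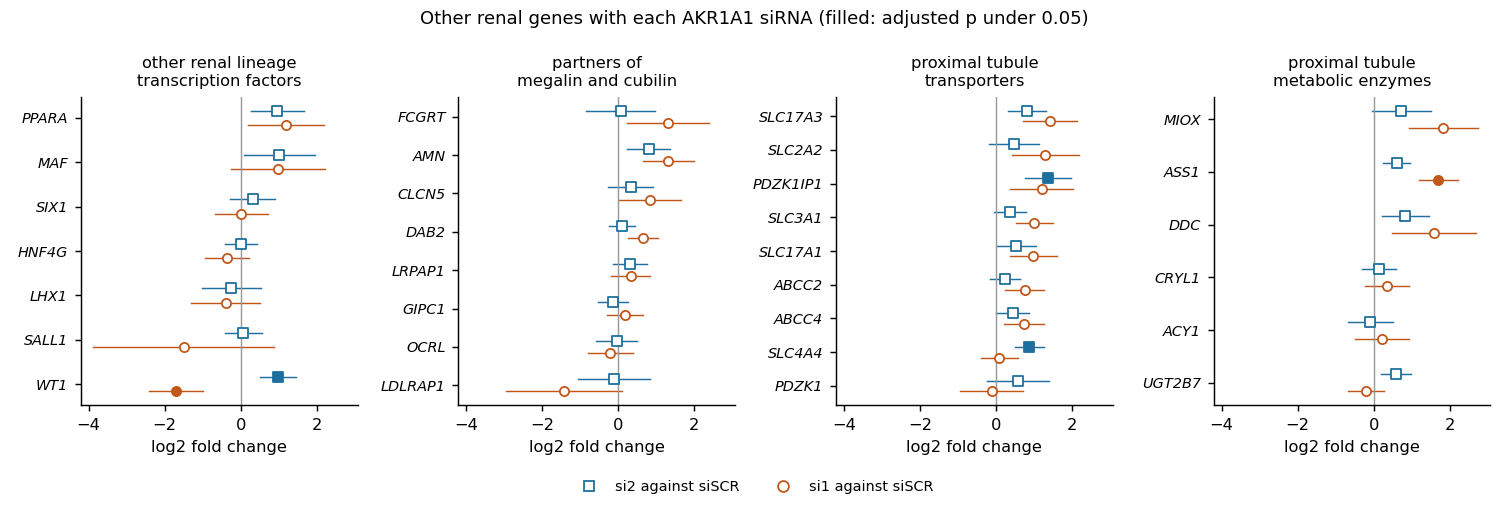
Log2 fold changes with 95% intervals from limma for tested genes of 4 other renal lists, si2 (squares) and si1 (circles) against the same siSCR libraries; filled symbols mark an adjusted p under 0.05. WT1 is filled on opposite sides of 0, at 0.98 for si2 and -1.71 for si1, and 8 of 9 transporters lie above 0 with si1.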

How the data were processed

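The submitters' processing notes name cutadapt, FastQC, STAR on GRCh38, HTSeq and DESeq2, without versions. Per the file headers, the authors deposited 1 table for each siRNA against the control, with log2 values per library; tested on the values, these were the log2 of the normalized count plus 1, the count having been scaled by relative log expression in DESeq2 per the labels' protocols. The authors' deposited tables also held a mean normalized signal, log2 fold changes and p-values with adjusted p-values. The control values were identical in both (largest difference 0), and 1 row without a name was left out.

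Undoing the log2, 100% of values lay within 0.01 of a whole read. Each comparison was fitted on its own libraries with limma 3.58.1 in R 4.3.3, two-sided, on log2(normalized count + 1). Genes needed a normalized count of at least 10 in a number of libraries equal to the size of the smaller group. A fold change on this scale understates that of low genes. The threshold was an adjusted p (Benjamini-Hochberg, all genes tested) of 0.05. The plan also named a count test, which the log2 unit replaced by limma, with voom on recovered reads as an alternative. The fit was tested on simulated data. Exon lengths and positions came from GENCODE 29, and start regions from RefSeq on GRCh38.p14.

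The 9 genes and all lists were chosen with earlier results of these data known. Named were the 9, AKR1A1, up to 4 called genes and the 2 of highest level per list, and the 3 of nearest pattern to each expressed gene; 2 genes of the transcription factor list, counted in its totals, and 1 motif searched are not reported here. The alternatives changed the pseudocount, filter, scaling, model, covariates and libraries. Markers served to check the line: 6 of 9 of clear-cell carcinoma, 1 of 7 of fibroblasts (COL1A1), 1 of 7 of leukocytes (CD68) and 0 of 7 of endothelium were expressed. With a minimum of 50, 4 of the 9 carcinoma markers counted as expressed. EGLN3 and CP were near the minimum of 10, with group means of 10.1 to 16.8 normalized counts. NDUFA4L2 and ANGPTL4 were low, and CA9 had no read.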

Additional observations from a re-analysis of the deposited data

Results flagged for a closer look

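In 5 of 36 groups of 4 libraries the extreme library lay apart from the others by Dixon's test at 95%, which by chance picks out about 1 in 20 groups, and each time it was siSCR 1. The groups share their libraries and are not independent tests, so the 5 cannot be read against that share. LRP2 had 0.84 normalized counts in siSCR 1 and 0 in the other 3 siSCR libraries, which is a single read. ANPEP had 340.0 normalized counts in siSCR 1 and 93.7 to 118 in the others. PDZK1IP1 had 792, against 331 to 365 in the others, SPP1 had 1806, against 555 to 757, and VCAM1 had 42.0, against 20.9 to 24.4. That library also had the highest share of mitochondrially encoded transcripts, 12.1%; its part in these values was not tested.

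Several genes differed between the siRNAs in limma's direct test of si2 against si1. On the log2 scale AQP1 was higher with si2 by 2.21 (limma adjusted p = 0.0303), WT1 by 2.69 (0.00409), VCAM1 by 1.90 (0.0223) and COL1A1, a collagen gene used as a fibroblast marker, by 1.38 (limma adjusted p = 0.0429). The COL1A1 call held without si1 2 and was lost without any other library (limma adjusted p of 0.0505 to 0.116). ASS1 (-1.09), MIOX (-1.10) and FCGRT (-1.25) were lower with si2. The si1 libraries had the larger mitochondrial share, 6.57% to 11.1%, than the si2 libraries, 4.59% to 5.12%, without overlap. A fit with this share as a covariate therefore could not cleanly separate it from the siRNA. In that fit limma called 167 of all genes in place of 704. WT1 was called, at 3.46 (limma adjusted p = 0.019). The other 6 were not, with values of 1.82 for VCAM1, -1.22 for FCGRT, -0.96 for MIOX and -0.85 for ASS1 (limma adjusted p of 0.142 to 0.248), and smaller ones of 0.75 for AQP1 and 0.58 for COL1A1 (limma adjusted p of 0.397 and 0.457).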

How the results depend on the processing

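Over the 6 of the 9 genes that were tested, 263 of the values under alternatives kept their direction and side of the threshold, 20 passed newly, 9 no longer passed and 5 changed sign. For si1 against siSCR, 0 genes called became 1 with a pseudocount of 5, limma-trend or voom (AQP1 each time) and 2 with all 11 libraries in one fit; leaving out libraries gave 0 to 3. For si2 against siSCR, 0 became 1 (CDH6) with a minimum of 50, limma-trend, voom or the mitochondrial covariate, and leaving out libraries gave 0 to 1. For si2 against si1, 1 became 0 with no filter (AQP1, adjusted p = 0.0719) or the mitochondrial covariate, 2 with a minimum of 50 or limma-trend (AQP1 and PAX2), and 3 with voom (also CUBN), and leaving out libraries gave 0 to 1. The cause was not tested.

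Deviations from group means correlated at r of -0.03 to 0.39 over 10 same-numbered pairs, and of -0.28 to 0.11 over 30 differently numbered pairs. A library correlated best with its own number, among the 3 or 4 libraries of another group, in 11 of 20 cases. A random pick would be right in 1 of 3 or 1 of 4 cases, and the cases share libraries and are not independent. The highest r, 0.39, was that of si1 1 and siSCR 1, which had mitochondrial shares of 11.1% and 12.1%. Whether same-numbered libraries share a batch was not tested. The main fits had no replicate term. With the replicate block 0 of the 9 genes were called in each comparison, 0 in place of 1 for si2 against si1, with AQP1 at 2.17 (limma adjusted p = 0.166); WT1 was then at 2.63 between the siRNAs (limma adjusted p = 0.0736) and was not called against siSCR (0.0515 for si2 and 0.154 for si1); over all genes the block gave 175 calls for si2 and 0 for si1 against siSCR, and 6 for si2 against si1.

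Over all genes, leaving out libraries moved the calls between 88 and 1496 for si2 and between 0 and 1747 for si1 against siSCR, and between 120 and 803 for si2 against si1. The other alternatives gave 108 to 1343, 0 to 1141 and 6 to 1166 calls. With single libraries left out, some values ran across 0. For si2 against siSCR these were ANPEP (-0.15 to 0.47), AQP1 (-0.0075 to 0.38) and FCGRT (-0.32 to 0.34). For si1 against siSCR they were SLC4A4 (-0.044 to 0.21) and VCAM1 (-0.22 to 0.13). For si2 against si1 they were PDZK1IP1 (-0.076 to 0.35) and AKR1A1 (-0.43 to 0.45). AKR1A1 for si2 against si1 was -0.018 after upper-quartile rescaling and -0.10 with voom. Over its 16 alternatives it lay between -0.43 and 1.27 and was called in 0. With a minimum of 50, 5 of the 9 genes counted as expressed (not CUBN), and with 1, 7 (also MME). Depth limited LRP2, MME and CUBN, with 7 to 116 reads in all.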
